A study of Mus musculus with 8 samples.

Results

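The histone genes of the mouse were followed through 5 days of culture of CD8+ T cells. Members were taken by symbol: every symbol of the count files that began with Hist1h, Hist2h, Hist3h, Hist4h, H2af or H3f3, and H1f0, with 4 symbols that carry a pseudogene suffix left out. The rule gave 84 of the 48321 symbols in the files. Of these, 69 were replication-dependent genes, which carry the Hist names, 14 were variant genes, and H3f3aos is a noncoding transcript antisense to H3f3a. Of the 84, 4 are annotated as pseudogenes under plain symbols, namely the variant symbols H2afy3 and H3f3c and the cluster symbols Hist1h2aj and Hist1h2al. A count was found in at least 1 library for 50 of the 84, and 19 passed the filter on low counts, 8 variant and 11 replication-dependent, and were tested among 12597 genes.

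The libraries were made from total RNA of sorted peripheral CD8+ T cells of C57BL/6 spleen and were read to 50 bases. There were 8 libraries in 4 groups of 2, WT and KO at day 0 and at day 5, and the series title speaks of CD8+ T cells stimulated in vitro. The KO animals are given as Satb1 F/F; E8I-cre, in which a Cre under the E8I enhancer of Cd8a, active in mature CD8+ T cells, deletes Satb1, a chromatin organizer. Whether the WT animals carried the floxed alleles or the Cre, the age and sex of the animals, the stimulus, and whether a group's libraries came from separate animals are not given in the sources used here, so p-values measure only the spread between these libraries.

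Histones are the proteins around which DNA is wrapped: H2A, H2B, H3 and H4 form the core of the nucleosome, and H1 binds the linker DNA between nucleosomes. The replication-dependent genes lie in clusters, are transcribed mainly in S phase, and make messages that usually end just after a stem-loop in place of a poly(A) tail. The variant genes, such as those for H2A.Z, macroH2A and H3.3, lie alone, make polyadenylated messages, and supply histones outside S phase as well.

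Depth was 4170126 to 11117971 counts in genes per library. Satb1 was at 97.5 and 91.2 CPM (counts per 1000000 counts of a library, its size scaled by TMM) in the WT libraries at day 0 and at 144 and 124 CPM in those labelled KO, which goes against the label (log2 fold change 0.51 ± 0.15 (SE), not called at an adjusted p = 0.125, edgeR), although counts over the whole gene can include exons that the deletion spares. At day 5 it was at 96.1 and 115 CPM in WT and at 56.3 and 62.1 CPM in KO (log2 fold change -0.84 ± 0.15 (SE), adjusted p = 0.0162, edgeR quasi-likelihood test, adjusted by Benjamini-Hochberg over all genes tested), and the interaction of genotype and day was called, at -1.34 ± 0.21 (adjusted p = 0.0269, edgeR). The groups are therefore named here by their labels. Cd8a was at 731 to 1450 CPM in every library. Among the B cell markers Ms4a1 was at 0 to 0.37 CPM and Cd79b was at 66.4 to 163 CPM, and the summed CPM of 3 B cell markers (Ms4a1, Cd79a and Cd79b) ran from 120 to 164 at day 0 and from 66.8 to 83.6 at day 5, that of the 4 myeloid markers from 10.2 to 18.7 and from 4.04 to 5.85. The erythroid, NK cell and CD4 T cell lists summed to at most 1.20, 1.43 and 2.99 CPM. The part of these cells in the results below was not tested, and in bulk libraries fewer cells with a message and less message per cell cannot be told apart.

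The stem-loop is the site by which SLBP, the stem-loop binding protein, holds a replication-dependent message. In the GENCODE transcripts of GRCm38 the stem-loop motif, 16 bases with 6 paired bases on each side of a loop of 4, was found in 44 of the 69 replication-dependent genes, and of the variant genes in H2afx. In 22 of them the annotated transcripts that hold it ended within 100 bases after it (Hist1h2bp, 1 of these, also has a transcript without it). In 22 at least 1 transcript ran further, and in 25 replication-dependent genes none was found. Some of the 25 have short annotated transcripts, down to 312 bases, and a stem-loop past an annotated end could not be found. Below, the site of 6 genes whose levels changed is shown as DNA letters of the transcript, 5′ to 3′, with the stem-loop in capitals.
Hist1h2bm: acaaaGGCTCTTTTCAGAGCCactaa
Hist3h2a: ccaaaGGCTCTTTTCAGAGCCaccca
Hist1h1c: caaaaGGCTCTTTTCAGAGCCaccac
Hist1h4i: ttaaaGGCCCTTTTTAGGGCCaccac
Hist1h4d: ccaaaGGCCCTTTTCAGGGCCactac
H2afx: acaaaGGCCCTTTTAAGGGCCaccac
The 16 letters were identical in Hist1h2bm, Hist3h2a and Hist1h1c, while Hist1h4i, Hist1h4d and H2afx had other letters in the stem or the loop. The longest transcript of Hist1h2bm ended 46 bases past the stem-loop. Those of Hist1h4i, Hist1h4d, H2afx, Hist1h1c and Hist3h2a ran on for 330, 770, 822, 840 and 1643 bases.

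Very few counts fell on the replication-dependent genes. Over all 8 libraries they held 2185 counts, against 126632 on the 14 variant genes. No count at all was found for 31 of the 69, and 10 genes held 88.6% of the counts, led by Hist3h2a with 452, Hist2h2be with 347 and Hist1h1b with 268. The core classes were unequal. Among the 12 replication-dependent H3 genes there were 5 counts in all, and 17 of the 20 H2A genes had none, whereas all 6 H1 genes, 14 of 18 H2B genes and 10 of 13 H4 genes had at least 1.

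Several measured properties went along with the low counts. The replication-dependent genes resemble each other, and a median of 45.0% of their 50-base exon windows occurred in no other annotated gene, against 87.7% for the variant genes. Per 1000 such distinct windows, however, the replication-dependent genes still held only 55.5 counts, against 5501 for the variant genes. Between 31.8% and 37.4% of the alignment records of a library had been set aside as not unique. The median share of distinct windows was 17.2% for the 31 replication-dependent genes without a count and 61.2% for the 38 with one. Only 2 of the 31 had at least 500 distinct windows, Hist1h2ac with 2091 and Hist1h3d with 902, while Hist1h1d, a linker histone, had 7210 and 2 counts. The 22 genes whose transcripts end at the stem-loop held 126 counts, the 22 that run past it 1312, and the 25 with no stem-loop found 747. Per 1000 distinct windows these were 36.7, 45.0 and 110 counts. Of the 747, Hist2h2be held 347 and Hist1h1b 268, and some of the 25 may lack the stem-loop only because their annotated transcripts are short. Of the 20 H2A genes, all 20 share exon bases with another annotated gene. A list of 10 RNAs without a poly(A) tail, histones left out, summed to 3 to 9 counts per library, and 7 of the 10 were at 0 throughout. The sources used here do not say whether poly(A) RNA was selected, and the part of each of these properties in the low counts was not tested.

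**Figure D1:**
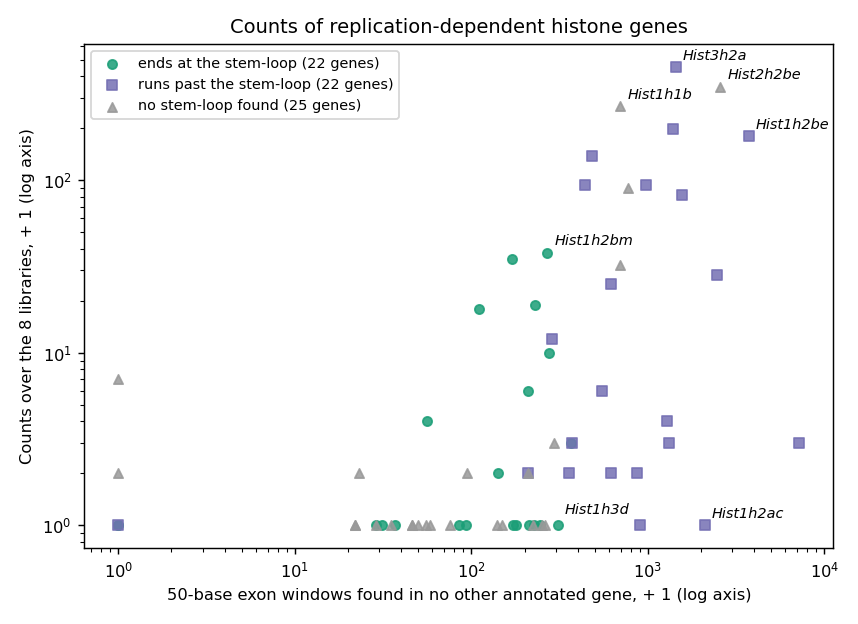
Counts over the 8 libraries plus 1 (log axis) against the number of 50-base exon windows found in no other annotated gene plus 1 (log axis), one point per replication-dependent histone gene, coloured by how its annotated transcripts end. Hist3h2a, Hist2h2be and Hist1h1b lie highest, and Hist1h2ac and Hist1h3d lie on the baseline of no counts despite 2091 and 902 distinct windows.

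From day 0 to day 5 tested histone genes changed in both directions. The variant genes H2afz, H2afy, H1f0 and H2afx, the linker histone gene Hist1h1b and the H2B gene Hist1h2bm rose in both genotypes. They did so also under each alternative setting in which they were tested and with each library left out in turn. Of these genes, H1f0, H2afx, Hist1h1b and Hist1h2bm passed the filter on low counts through the day 5 libraries alone. In WT, 11 of 19 rose, 4 fell and 4 were not called (adjusted p under 0.05). Of all genes tested, 48.3% were called in this comparison, 24.7% higher and 23.6% lower. In KO, 9 rose, 4 fell and 6 were not called, against 50.2% of all genes, 26.2% higher and 24.0% lower. These counts are in part set by the filter on low counts. Of the 19, 6 passed it through the day 5 libraries alone, namely H1f0, H2afx, Hist1h1b, Hist1h2bc, Hist1h2bm and Hist1h4d. A further 3, H2afj, Hist2h4 and Hist3h2ba, passed it through the day 0 libraries alone. The entry of these 9 depended on their level on 1 of the days, so a call in that direction is in part set by the filter. The counts describe the genes tested and not the 84. The 6 made up 6 of the 11 that rose in WT and 5 of the 9 in KO. Of the 10 that passed on both days, 5 rose and 3 fell in WT and 4 rose and 3 fell in KO. Their median log2 fold change was 0.67 and 0.21, against -0.04 and -0.05 over all genes tested. The latter were not restricted to genes that passed on both days, so the sets are unlike. The 13 genes called in KO were all among the 15 called in WT, which is 86.7% of the latter, and every one kept its direction. The like share over all genes tested is not given here, so this describes these genes only. H2afv and Hist1h4d were called in WT only. The counts of calls were 9 in WT and 8 in KO when at least 5 CPM in 2 libraries was asked, 8 in WT without WT day 0 replicate 2 and 9 without WT day 5 replicate 1, and 7 in KO without KO day 5 replicate 2.

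**Figure D2:**
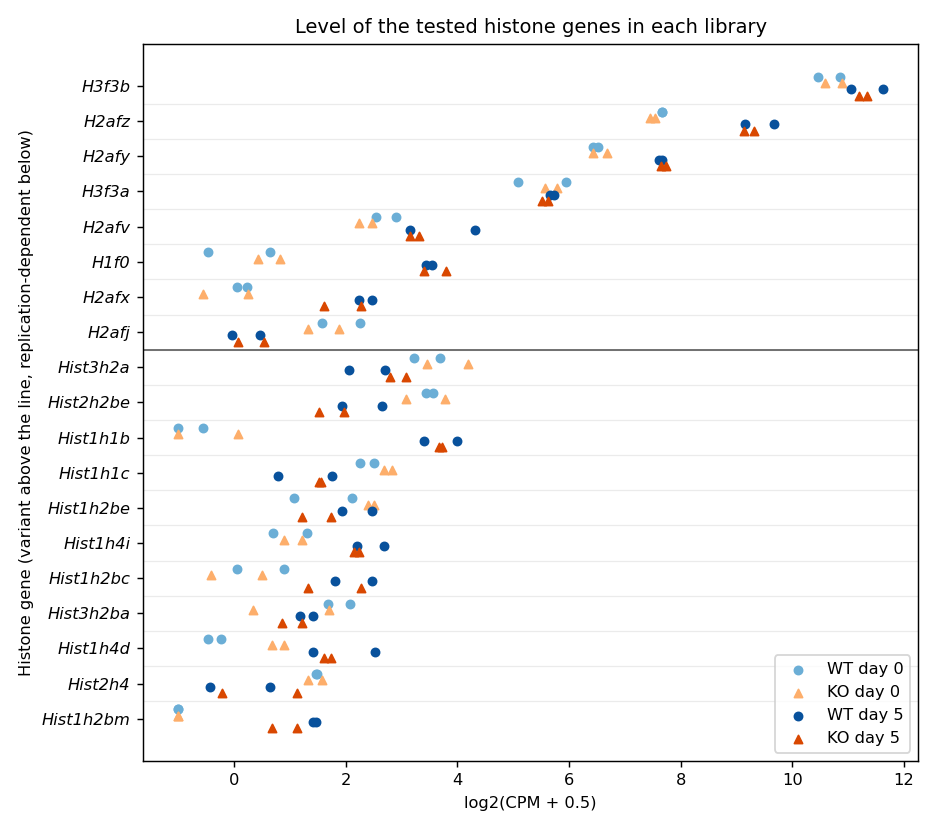
Level of each of the 19 tested histone genes, as log2(CPM + 0.5), with one point per library, circles for WT and triangles for KO, light for day 0 and dark for day 5. The variant genes stand above the line, in order of mean CPM from H3f3b, near 11, to H2afj. The dark points lie to the right of the light ones for H2afz, H2afy, H1f0, H2afx and Hist1h1b and to the left for H2afj, Hist3h2a, Hist2h2be and Hist1h1c.

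H3f3b, 1 of the genes that encode H3.3, the H3 variant placed independently of replication, held the most counts of the histone genes. This is a rank of counts and not of message in the cells. H3f3b held 77.6% of the counts of the variant genes. Its mean was 709 CPM per kb of exon, against 235 for H2afz, 21.5 for H2afy and 14.0 for H3f3a. In WT it was at 1856 and 1400 CPM on day 0 and at 3159 and 2109 CPM on day 5. In KO it was at 1541 and 1884 CPM on day 0 and at 2346 and 2594 CPM on day 5. All day 5 libraries thus lay above all day 0 libraries, with a log2 fold change of 0.69 ± 0.18 (SE, n = 2 per group, adjusted p = 0.00775, edgeR) in WT and 0.53 ± 0.18 (adjusted p = 0.0299, edgeR) in KO. This was the smallest of the called changes, and it was lost with an offset for GC content and length, at 0.27 in WT (adjusted p = 0.241) and 0.23 in KO (adjusted p = 0.317). With library totals only the KO value was 0.35 (adjusted p = 0.0982). The call was also lost in WT without day 0 replicate 2 (0.51) or day 5 replicate 1 (0.40), and in KO without day 0 replicate 1 (0.40) or day 5 replicate 2 (0.49).

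H3f3a encodes the same H3.3 protein and was called in neither genotype. It was at 61.1 and 33.6 CPM in WT on day 0, at 52.5 and 49.9 CPM in WT on day 5, and in KO at 54.8 and 46.8 CPM and then at 45.5 and 48.7 CPM. The days overlapped in both genotypes, with log2 fold changes of 0.11 (95% interval -0.40 to 0.61) and -0.12 (-0.61 to 0.38), and the sign in WT turned to -0.03 with library totals in place of TMM and to -0.26 with the GC and length offset. Without WT day 0 replicate 1 the WT value was 0.64 and called (adjusted p = 0.0424), and without WT day 0 replicate 2 it was -0.25. Its share of the counts of both genes was 2.34% to 3.43% at day 0 and 1.64% to 2.31% at day 5. Per kb, H3f3b stood 33.1 to 70.8 times above H3f3a, over libraries. H3f3a shares 798 exon bases with H3f3aos and Gm17275 on the opposite strand, and only 72.9% of its windows were distinct. The antisense H3f3aos itself held 39 counts in all, 1 to 12 per library, and since the counting is not stated to use strand, reads in the 160 bases that the pair shares cannot be told apart. H3f3c, annotated as a processed pseudogene, held 2 counts.

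H2afz, the main gene for H2A.Z, a variant found around transcription start sites, rose most among the 4 histone genes with the highest mean CPM. Only 64.6% of its windows were distinct. In WT it was at 201 CPM in both day 0 libraries and at 813 and 567 CPM on day 5. In KO it was at 174 and 185 CPM on day 0 and at 637 and 562 CPM on day 5. Both genotypes thus moved from a narrow low range to well above it, with log2 fold changes of 1.78 ± 0.16 (SE, n = 2 per group, adjusted p = 1.83e-06, edgeR) and 1.74 ± 0.16 (adjusted p = 1.91e-06). H2afv encodes the second H2A.Z protein and stood at 5.15 CPM per kb on average. It was at 5.35 and 6.98 CPM in WT on day 0 and at 8.44 and 19.4 CPM on day 5, and in KO at 5.04 and 4.21 CPM and then at 8.43 and 9.43 CPM. Every day 5 library lay above every day 0 library, yet the change was called in WT only, at 1.16 ± 0.39 (adjusted p = 0.0259, edgeR) against 0.93 ± 0.39 in KO (adjusted p = 0.0631), and the WT call was lost with library totals (1.04, adjusted p = 0.0504), with the GC and length offset (0.69) and without WT day 0 replicate 1 (1.0), day 0 replicate 2 (1.36) or day 5 replicate 2 (0.48). In KO it was called in the fit of the 4 KO libraries alone (0.93), and when either WT day 5 library was left out. The difference between genotypes in this change was -0.23 (95% interval -1.43 to 0.96, adjusted p = 0.909, edgeR).

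H2afy encodes macroH2A1, an H2A with a large added domain that is known from the inactive X chromosome and from silent genes. It was at 85.5 and 91.2 CPM in WT on day 0 and at 202 and 194 CPM on day 5, and in KO at 85.3 and 103 CPM and then at 199 and 212 CPM. The 2 days were far apart and the libraries within a group close together, and the log2 fold changes were 1.16 ± 0.14 (SE, n = 2 per group, adjusted p = 1.72e-05, edgeR) in WT and 1.14 ± 0.13 (adjusted p = 1.73e-05) in KO. Of its 6809 exon bases, 501 are shared with Gm47071 on the opposite strand. H2afy2, the gene for macroH2A2, held 3 counts and was not tested.

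H2afx encodes H2A.X, which is phosphorylated around DNA breaks, and its message is known in a stem-loop and a polyadenylated form. Counts in WT were 3 and 3 on day 0 and 24 and 21 on day 5, that is 0.53 and 0.68 CPM and then 4.22 and 5.04 CPM. In KO they were 8 and 1 on day 0 and 14 and 23 on day 5, or 0.68 and 0.18 CPM and then 2.57 and 4.34 CPM. The log2 fold changes were 2.90 ± 0.66 (SE, n = 2 per group, adjusted p = 0.0029, edgeR) and 2.73 ± 0.62 (adjusted p = 0.00284). H2afj, a further H2A variant gene, went the other way. It was at 2.50 and 4.28 CPM in WT on day 0 and at 0.88 and 0.48 CPM on day 5, and in KO at 3.16 and 2.01 CPM and then at 0.55 and 0.94 CPM, with log2 fold changes of -2.22 ± 0.66 (adjusted p = 0.0143) and -1.81 ± 0.63 (adjusted p = 0.0298). It was the only tested variant gene that fell. With DESeq2 the adjusted p was 0.052 in WT and 0.118 in KO, so the call was lost in both. It was also lost without WT day 0 replicate 2 (-1.79), WT day 5 replicate 1 (-2.73) or WT day 5 replicate 2 (-1.89), and in KO without day 0 replicate 1 (-1.39), day 5 replicate 1 (-1.46) or day 5 replicate 2 (-2.20) and at equal depth (adjusted p = 0.0608).

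The linker histones moved in opposite directions. H1f0, a replacement linker histone usually tied to cells that have left the cycle, was at 1.07 and 0.23 CPM in WT on day 0 and at 11.2 and 10.3 CPM on day 5. In KO it was at 0.85 and 1.28 CPM on day 0 and at 10.1 and 13.4 CPM on day 5. Its log2 fold changes, 3.93 ± 0.51 (SE, n = 2 per group, adjusted p = 4.36e-05, edgeR) and 3.51 ± 0.44 (adjusted p = 3.05e-05), were the largest among the variant genes. Hist1h1b, a replication-dependent linker histone gene with no stem-loop in its annotated transcript, had 1 and 0 counts in WT on day 0 and 88 and 42 on day 5. In KO it had 0 and 3 counts and then 69 and 65. Summed over each group, its rate at day 5 was 133 times that at day 0 in WT (exact 95% counting interval 23.4 to 5276) and 71.3 times in KO (23.9 to 350.05), and the adjusted p was 2.94e-05 and 1.59e-05 (edgeR). Such intervals cover counting error only.

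Hist1h1c, the other well-covered linker histone gene, was higher at day 0. It was at 5.17 and 4.28 CPM in WT on day 0 and at 1.23 and 2.88 CPM on day 5, and in KO at 5.90 and 6.58 CPM and then at 2.38 and 2.45 CPM. The log2 fold changes were -1.25 ± 0.47 (SE, n = 2 per group, adjusted p = 0.0417, edgeR) and -1.35 ± 0.42 (adjusted p = 0.0181), and DESeq2 called neither (adjusted p = 0.136 and 0.0723). The WT call was lost without WT day 0 replicate 1 (-1.08), day 0 replicate 2 (-1.37), day 5 replicate 1 (-0.69) or any KO library other than day 0 replicate 2 (-1.21 to -1.24), without the filter (-1.27), at equal depth (-1.27) and in the fit of 4 libraries (-1.23). The KO call was lost without KO day 0 replicate 2 (-1.27), day 5 replicate 1 (-1.32) or day 5 replicate 2 (-1.34). Hist1h1a had 2 and 0 counts in WT on day 0 and 6 and 7 on day 5, and in KO 8 and 1 and then 7 and 0, too few to be tested. The summed level of the 6 replication-dependent H1 genes was 5.08 ± 1.13 CPM (SD, n = 2) at day 0 and 16.6 ± 2.1 at day 5 in WT, and 7.04 ± 0.65 and 15.5 ± 1.13 in KO, a description with no test.

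The H2B genes divided in the same way. Hist1h2bm, whose transcript ends at the stem-loop, had no count in any of the 4 day 0 libraries and 13, 9, 6 and 9 at day 5 in the order of the WT and KO libraries. Against a floor of 3 counts per group it was at least 7.48-fold higher at day 5 in WT and at least 7.98-fold in KO (adjusted p = 0.00322 and 0.00328, edgeR). Hist1h2bj had much the same pattern below the filter, with 0 and 1 counts in WT and none in KO on day 0, and 13, 5, 5 and 10 on day 5. Hist1h2bc was at 0.53 and 1.35 CPM in WT on day 0 and at 2.99 and 5.04 CPM on day 5, and in KO at 0.26 and 0.91 CPM and then at 2.02 and 4.34 CPM. It rose by a log2 fold change of 2.1 ± 0.72 (adjusted p = 0.0302, edgeR) and 2.62 ± 0.74 (adjusted p = 0.0106). The call was lost in WT with the GC and length offset (1.57) and without day 0 replicate 1 (1.57), day 0 replicate 2 (2.85) or day 5 replicate 2 (1.71), and in KO without day 0 replicate 1 (1.78) or day 5 replicate 2 (1.99).

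Hist2h2be, an H2B gene of the second cluster with no stem-loop in its annotated transcript, fell. It was at 10.3 and 11.3 CPM in WT on day 0 and at 3.34 and 5.76 CPM on day 5, and in KO at 7.95 and 13.2 CPM and then at 2.38 and 3.40 CPM. The days did not overlap, and the log2 fold changes were -1.27 ± 0.38 (SE, n = 2 per group, adjusted p = 0.0155, edgeR) and -1.84 ± 0.39 (adjusted p = 0.00185). In WT the call was lost without day 0 replicate 1 (-1.30), day 0 replicate 2 (-1.20) or day 5 replicate 1 (-0.88). Hist1h2be and Hist3h2ba were called in neither genotype. Hist1h2be shares 496 exon bases with Gm11398 and Hist1h1e on its own strand, which leaves its counts uncertain. In KO it was called, lower at day 5, with library totals only (-1.28), with the edgeR 4 form of the test (-1.11) and with the GC and length offset (-1.30).

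Among the H2A and H4 genes the changes also went both ways. Hist3h2a, which held 452 of the 455 counts of the replication-dependent H2A genes, was at 12.5 and 8.79 CPM in WT on day 0 and at 3.69 and 6.00 CPM on day 5, and in KO at 10.5 and 17.7 CPM and then at 6.41 and 7.92 CPM. It fell by 1.17 ± 0.38 on the log2 scale in WT (adjusted p = 0.0227, edgeR) and by 0.95 ± 0.34 in KO (adjusted p = 0.0358), but it shares 708 of 2146 exon bases with Trim17 and Gm44313. Its call was lost in WT without day 0 replicate 1 (-0.85) or day 5 replicate 1 (-0.81), and in KO with DESeq2 (-0.93), at equal depth (-0.87) and without day 0 replicate 2 (-0.54), day 5 replicate 1 (-0.80) or day 5 replicate 2 (-1.08). The H4 gene Hist1h4i was at 1.96 and 1.13 CPM in WT on day 0 and at 5.98 and 4.08 CPM on day 5, and in KO at 1.37 and 1.83 CPM and then at 4.22 and 3.96 CPM. It rose by 1.68 ± 0.49 (adjusted p = 0.0135) and 1.38 ± 0.47 (adjusted p = 0.0265). That call was lost in WT without day 0 replicate 2 (1.37) or day 5 replicate 1 (1.39), and in KO with DESeq2 (1.42), with the GC and length offset (1.0) and without day 0 replicate 1 (1.17), day 5 replicate 1 (1.35) or day 5 replicate 2 (1.46). Hist1h4d had 2 and 1 counts in WT on day 0 and 30 and 9 on day 5, a ratio of 13.3 (exact 95% counting interval 4.21 to 67.1, adjusted p = 0.00184, edgeR). In KO it had 16 and 6 counts and then 14 and 15, with a log2 fold change of 1.09 ± 0.57 (adjusted p = 0.131). Hist2h4 was at 2.01 to 2.48 CPM in all 4 day 0 libraries and at 0.24 to 1.70 CPM on day 5 and was called in neither genotype (adjusted p = 0.0963 in WT and 0.195 in KO), although it was called in WT at equal depth (-2.18) and with the GC and length offset (-2.07). Below the filter, Hist4h4, Hist1h4c and Hist1h4h had 0 to 8 counts per library.

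**Figure D3:**
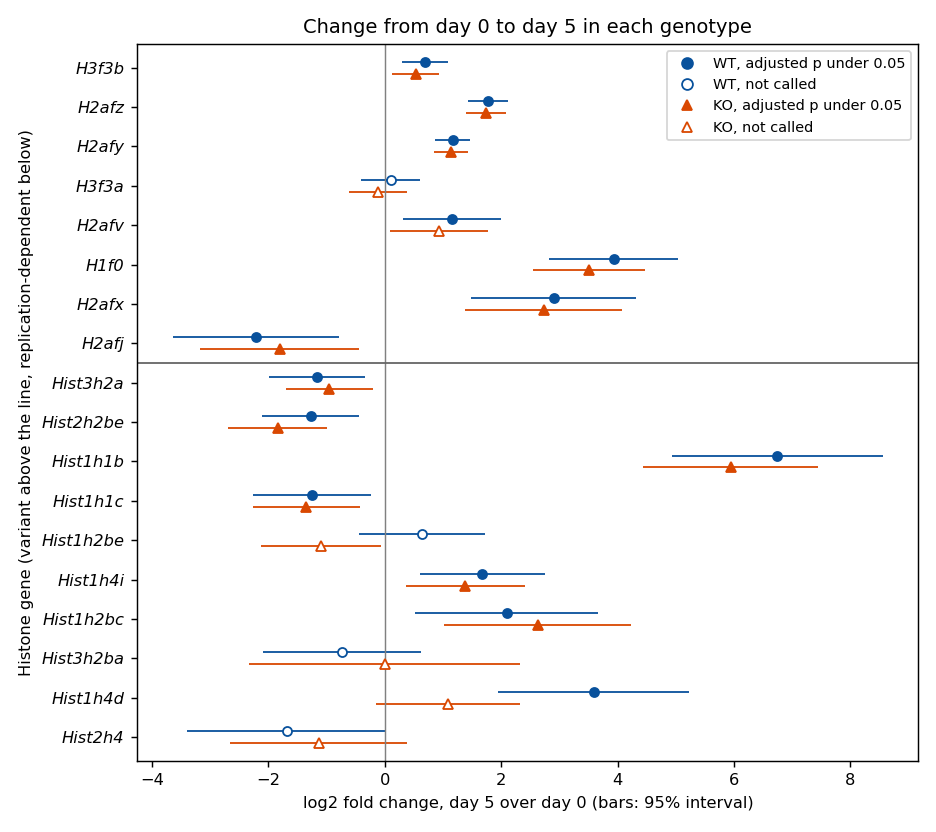
Log2 fold change from day 0 to day 5 in WT (circles) and KO (triangles) for 18 of the 19 tested histone genes, with bars for the 95% interval and filled symbols where the adjusted p was under 0.05. Hist1h2bm is left out because it had no count at day 0. Hist1h1b lies farthest to the right at 6.75 and 5.94, H2afj at -2.22 and -1.81 and Hist2h2be at -1.27 and -1.84 lie to the left, and Hist1h2be has opposite signs in the 2 genotypes, neither called.

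Summed over genes, the variant histones were higher at day 5 than at day 0 in every library of both genotypes. No test was made of sums. The variant sum was 1976 ± 336 CPM (SD, n = 2) in WT on day 0 and 3603 ± 917 on day 5, a log2 ratio of 0.87, and 2046 ± 256 and 3347 ± 139 in KO, a ratio of 0.71. H3f3b, whose call was lost with the GC and length offset, made up most of this sum. Without it the variant sum was 338 to 358 CPM in WT and 324 to 343 CPM in KO on day 0 and 846 to 1093 CPM and 851 to 903 CPM on day 5. The replication-dependent sum was 41.2 and 37.4 CPM in WT on day 0 and 56.1 and 52.3 CPM on day 5, and in KO 38.5 and 54.7 CPM and then 44.0 and 49.4 CPM. The log2 ratios were 0.46 in WT and 0.00 in KO, where the days overlapped. Over the genes that share no exon with another gene the ratios were 0.79 and 0.45. By class the sums went different ways, although a class can rest on 1 gene: of the 20 H2A genes 17 had no count and Hist3h2a, which shares exon bases with other genes, held nearly all of the rest. H2A went from 10.7 ± 2.73 to 5.02 ± 1.39 CPM in WT and from 14.1 ± 5.11 to 7.17 ± 1.07 in KO, H4 went from 5.51 ± 0.78 to 12.1 ± 4.95 and from 6.72 ± 0.32 to 9.30 ± 0.19, and H2B from 17.9 ± 2.11 to 20.4 ± 3.04 and from 18.5 ± 5.19 to 14.6 ± 3.59. Of these, the H2B libraries of the days overlapped in both genotypes. The H3 sum stayed at 0.37 CPM or less in every library.

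**Figure D4:**
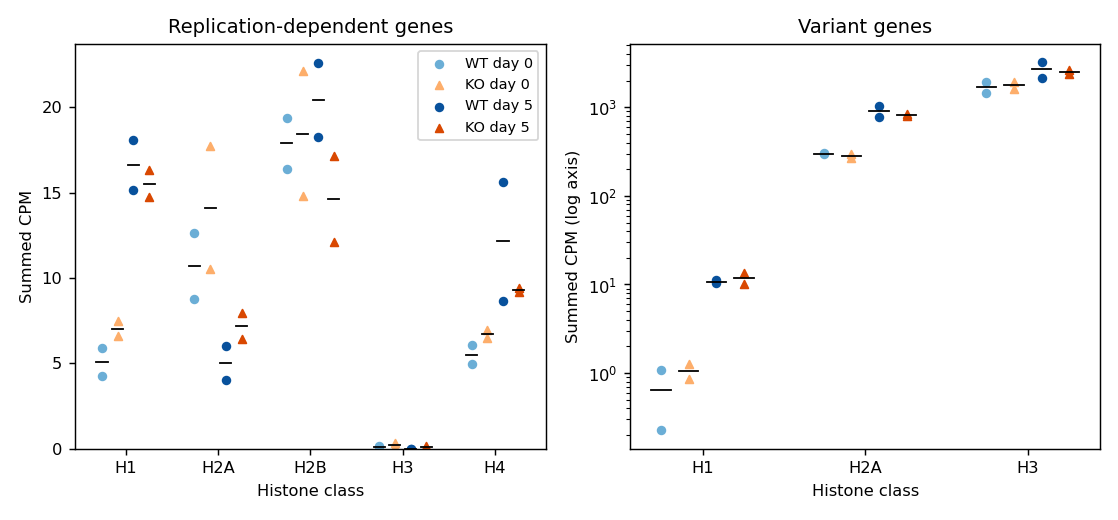
Summed CPM of the replication-dependent genes (left, linear axis from 0) and of the variant genes (right, log axis) by histone class, with one point per library, circles for WT, triangles for KO, and a bar at each group mean. Replication-dependent H1 lies at 15.5 to 16.6 CPM on average at day 5 against 5.08 to 7.04 at day 0, H2A, which is almost only Hist3h2a, has lower group means at day 5, and H3 stays near 0.

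No difference between the genotypes passed the test for a histone gene. At day 0, 0 of 19 were called by edgeR, where 1.80% of all genes tested were, and 1 had an unadjusted p under 0.05, against 13.8% of all genes. At day 5 it was 0 of 19, against 1.63% of all genes, with 0 under an unadjusted 0.05, against 14.1%. For the interaction, which asks whether the change from day 0 to day 5 differed between genotypes, it was 0 of 19, against 0.159% of all genes, with 2 (10.5%) under an unadjusted 0.05, against 12.4% of all genes. DESeq2 also called 0 in each, with 0 at an unadjusted p under 0.05. The lowest adjusted p over all alternatives was 0.206 at day 0, 0.139 at day 5 and 0.281 for the interaction. WT and KO libraries did not overlap for 5 of the 19 at day 0 and for 4 at day 5, against 43.5% and 45.6% of all genes tested. Between the days 17 of 19 did not overlap in WT, against 73.7% of all genes, and 17 in KO, against 77.9%. In both genotypes 16 did not overlap, and the like share over all genes is not given here.

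The intervals show how large a difference could have gone unseen. For H3f3b the log2 fold change of KO over WT was 0.07 (95% interval -0.33 to 0.47) at day 0 and -0.09 (-0.49 to 0.30) at day 5. For H2afy it was 0.08 (-0.21 to 0.38) and 0.05 (-0.23 to 0.34), and for H2afz -0.16 (-0.51 to 0.18) and -0.20 (-0.54 to 0.13). The genes with few counts were far less certain, as with H1f0 at day 0, 0.54 (-0.88 to 1.96). The widest among those with a count in both groups was Hist1h1b at day 0, 0.76 (-2.74 to 4.25).

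The genes with an unadjusted p under 0.05 for the interaction, no larger a share than among all genes, were Hist1h4d and Hist1h2be. Hist1h4d was at 0.36 and 0.23 CPM in WT and at 1.37 and 1.10 CPM in KO on day 0, and at 5.27 and 2.16 CPM and 2.57 and 2.83 CPM on day 5. Its KO libraries lay above the WT ones at day 0 (22 counts against 3, a ratio of 4.29 with an exact counting interval of 1.29 to 22.4, adjusted p = 0.301, edgeR), and the groups overlapped at day 5. Hist1h2be was at 1.60 and 3.83 CPM in WT and at 5.21 and 4.75 CPM in KO on day 0, and at 3.34 and 5.04 CPM and 1.83 and 2.83 CPM on day 5. It was the only tested histone gene for which the genotypes did not overlap on either day, and the sign turned, from 0.91 (adjusted p = 0.427) to -0.82 (adjusted p = 0.507). The interaction had an adjusted p of 0.338 and 0.339 for these genes.

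**Figure D5:**
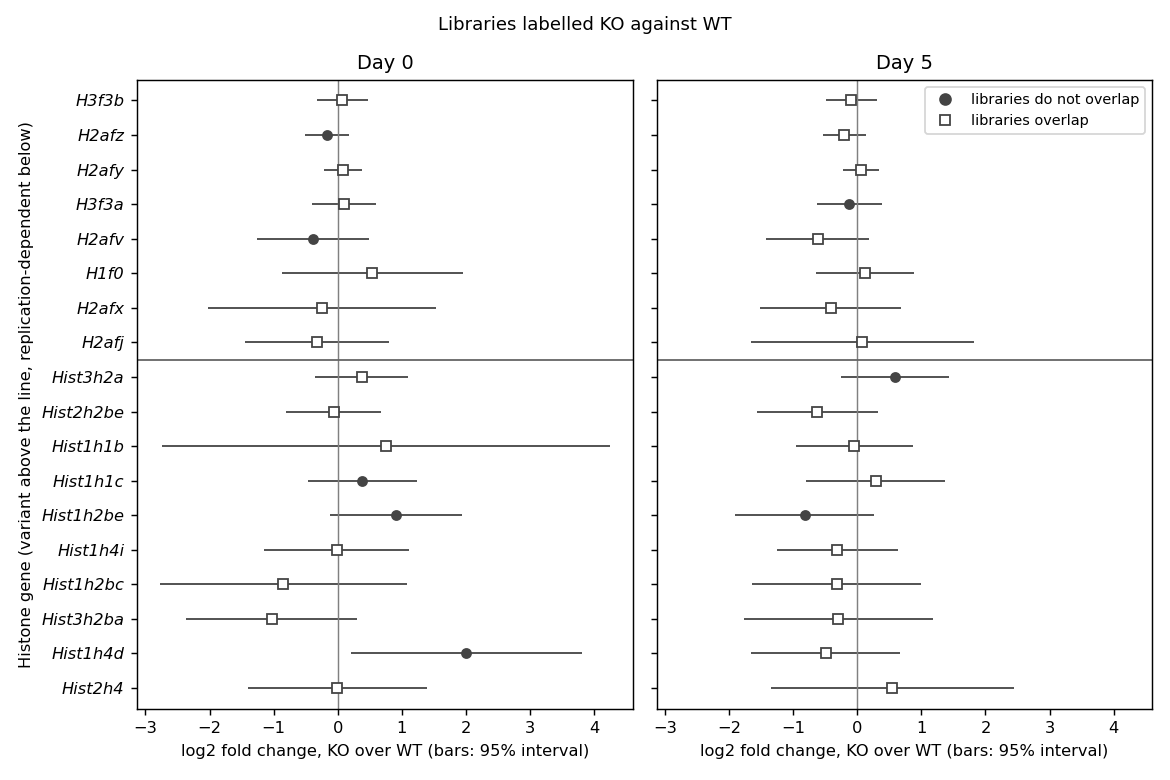
Log2 fold change of KO over WT at day 0 (left) and day 5 (right) for 18 of the 19 tested histone genes, with bars for the 95% interval, filled circles where the 2 WT and 2 KO libraries do not overlap and open squares where they do. Hist1h2bm is left out because it had no count at day 0. The intervals are narrow for H3f3b, H2afz and H2afy and wide for genes with few counts, and the one interval that leaves out 0 is that of Hist1h4d at day 0, 0.20 to 3.81.

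The promoters of the members were read from RefSeq (GRCm38.p6), where 61 replication-dependent and 11 variant genes were matched, as the 250 bases before the start. The letters CCAAT, on either strand, stood in 50 of the 61 and 7 of the 11, against 33.9% of 32851 promoters. The TATA box TATAAA stood in 29 and 1, against 12.4%. The octamer ATTTGCAT, known from H2B promoters, stood in 13 and 1, against 1.60%. Of the 13, 6 were among the 16 H2B promoters and 7 among the 17 H2A promoters. Some H2A and H2B genes lie back to back on opposite strands, and their windows overlap. The same letters could then be counted for both genes of a pair, so these are not all separate promoters. The E2F forms TTTCCCGC and TTTGGCGC stood in 1 and in none of the replication-dependent promoters and in no variant one, against 0.895% and 0.417%. The motifs were searched independently, so that matches could share bases. Shown are the gene with the most counts, H3f3b (chr11:116024505-116024754 on the minus strand), and H2afz (chr3:137864237-137864486 on the plus strand). Also shown are the replication-dependent genes that went from almost no count to a called rise. These are Hist1h1b (chr13:21780626-21780875 on the minus strand) and Hist1h2bm (chr13:21721794-21722043 on the plus strand). All run 5′ to 3′ on the gene's strand, with matches to these motifs in capitals.
H3f3b: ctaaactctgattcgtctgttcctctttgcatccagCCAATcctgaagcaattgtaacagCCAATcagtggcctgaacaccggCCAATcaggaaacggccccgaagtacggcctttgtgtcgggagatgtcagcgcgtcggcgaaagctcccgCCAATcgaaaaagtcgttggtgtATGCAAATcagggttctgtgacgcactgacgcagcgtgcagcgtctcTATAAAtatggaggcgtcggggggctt
H2afz: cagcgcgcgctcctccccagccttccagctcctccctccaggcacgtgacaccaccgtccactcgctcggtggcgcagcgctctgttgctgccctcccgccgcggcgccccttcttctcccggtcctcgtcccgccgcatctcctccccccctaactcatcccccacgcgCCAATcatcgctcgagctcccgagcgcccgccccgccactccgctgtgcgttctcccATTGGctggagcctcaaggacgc
Hist1h1b: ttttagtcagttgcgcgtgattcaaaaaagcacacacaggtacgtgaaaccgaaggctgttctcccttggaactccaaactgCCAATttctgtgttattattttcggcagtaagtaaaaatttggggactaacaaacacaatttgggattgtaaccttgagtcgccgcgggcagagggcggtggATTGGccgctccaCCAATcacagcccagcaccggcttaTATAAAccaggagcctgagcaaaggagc
Hist1h2bm: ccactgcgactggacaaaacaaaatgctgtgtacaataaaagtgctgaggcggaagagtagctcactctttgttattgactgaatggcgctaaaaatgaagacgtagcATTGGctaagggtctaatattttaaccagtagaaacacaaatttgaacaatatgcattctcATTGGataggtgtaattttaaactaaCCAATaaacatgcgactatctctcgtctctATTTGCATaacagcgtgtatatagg
H3f3b held 4 CCAAT matches, 1 octamer and 1 TATA box, Hist1h1b held 3 CCAAT matches and 1 TATA box, Hist1h2bm held 3 CCAAT matches and 1 octamer, and H2afz held 2 CCAAT matches. The promoters of H2afy and H1f0, which also rose, held none of these letters. A match is a description of the letters and not a measured site.

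Genes that act with the histones or in the cell cycle were taken as lists. All 25 genes of the mitosis list rose in WT and in KO, with median log2 fold changes of 7.01 and 7.17. Of the 41 genes of the DNA replication list 36 and 39 rose, with medians of 1.99 and 1.89 and none falling. Some of these genes were low in all day 0 libraries, such as Ube2c (0 to 0.37 CPM), Bub1 (0.45 to 0.91 CPM) and Mcm10 (0.68 to 1.65 CPM). Such genes passed the filter on low counts through day 5, so these counts and medians are in part set by the filter. Of all genes tested, as given above, 24.7% in WT and 26.2% in KO were called higher and 23.6% and 24.0% lower. Of the 14 genes of histone message processing, 4 (28.6%) rose in WT, near the share of all genes, and 6 (42.9%) in KO, and none fell, with medians of 0.26 and 0.10. Slbp, the stem-loop binding protein, rose by a log2 fold change of 1.15 ± 0.21 in WT (adjusted p = 0.000659, edgeR) and 1.77 ± 0.21 in KO (adjusted p = 2.12e-05). Zfp473, a zinc finger protein that works with the U7 snRNP in cutting histone messages, rose by 3.57 ± 0.50 and 3.66 ± 0.47. Npat, the coactivator of histone gene transcription, was at 0.28 ± 0.17 and 0.15 ± 0.17 and was not called.

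Of 30 histone chaperones and exchange factors, 15 (50%) rose and 6 (20%) fell in each genotype, the latter near the share of all genes, with medians of 0.38 and 0.67. Among those that act on new H3 and H4 the values were unequal. Chaf1a, a subunit of the chromatin assembly factor CAF-1, rose by 3.66 ± 0.32 in WT and 4.39 ± 0.32 in KO and Asf1b by 3.66 ± 0.19 and 3.68 ± 0.19, whereas its paralogue Asf1a was at -0.10 ± 0.45 (adjusted p = 0.869, edgeR) and -0.91 ± 0.45 (adjusted p = 0.111) and was not called. Anp32e, which removes H2A.Z, rose by 0.85 ± 0.15 and 0.95 ± 0.14. Daxx, a chaperone of H3.3, fell by 0.98 ± 0.14 and 0.89 ± 0.13, as did Ubn1 of the HIRA complex, by 0.86 ± 0.17 and 0.97 ± 0.16. Hira itself was at -0.37 ± 0.47 and -0.53 ± 0.45 and was not called. Between genotypes no gene of the processing or chaperone lists was called on either day. At day 0 the KO libraries were lower for 1 gene of the DNA replication list, Gins4 (-1.16 ± 0.17, adjusted p = 0.004, edgeR), and 1 of the mitosis list, Birc5 (-1.92 ± 0.42, adjusted p = 0.0404), and at day 5 for none.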

How the data were processed

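Gene counts were deposited as 1 table per library. Per the labels, RNA was purified with Trizol and the Direct-zol kit and libraries were made with the NEBNext Ultra RNA kit, and the submitters' processing notes name HISAT2 2.1.0, HTSeq 0.11.1 and mm10 (GRCm38). The annotation, the strand setting and the overlap mode are not given in the sources used here. The values deposited by the authors are raw counts, and summary lines of the counter were kept out of library sizes: records in no feature made up 27.5% to 33.6%, ambiguous ones 0.466% to 0.571%, unaligned ones 10.6% to 12.9%.

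The members and the gene lists were chosen with earlier results of these data known. Genes were kept by filterByExpr (minimum count 10), scaled by TMM and tested in edgeR 4.0.16 (R 4.3.3) by the quasi-likelihood test over all 8 libraries, with a mean per group, and Benjamini-Hochberg adjustment over the 12597 genes. Replicates of a gene varied by a biological coefficient of variation of 15.0%. The steps were tested on simulated data. DESeq2 1.42.0, other scalings and filters, a replicate block, a GC content and length offset, equal depth and leaving out each library were tried. Named were the 25 members with the highest mean CPM, every member called between genotypes, every tested variant, and the 5 called members with the largest change each way. Hist1h1d, Hist1h1e, Hist1h2ac, Hist1h2aj, Hist1h2al, Hist1h2bp, Hist1h3d, H2afb1, H2afb2, H2afb3, H2afy2, H2afy3 and H3f3c fall outside this rule and were named after their values were seen, and so were the motifs. Positions, exon sharing and stem-loops came from GENCODE transcripts of GRCm38, to which all 84 members matched. CPM intervals cover counting error only. Another B cell marker is not reported here.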

Additional observations from a re-analysis of the deposited data

Results flagged for a closer look

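The records that aligned to more than 1 place were used in no comparison. Their share was 35.7% or more in all day 5 libraries, WT and KO, and 34.5% or less in the WT libraries at day 0. Which genes these records came from was not analysed here. Groups of 2 libraries are too small for a test of single outlying libraries, and no histone gene passed the test of a difference between genotypes in its change from day 0 to day 5.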

How the results depend on the processing

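The count of histone genes called from day 0 to day 5 was 15 in WT and 13 in KO. It fell to 9 and 8 when at least 5 CPM in 2 libraries was asked, where 11 histone genes were tested, and stayed within 1.5 times of these counts under the other planned settings (13 to 15 in WT, 9 to 14 in KO). Leaving out single libraries gave 8 to 16 in WT, lowest without WT day 0 replicate 2 (8) and without WT day 5 replicate 1 (9), and 7 to 15 in KO, lowest without KO day 5 replicate 2 (7). Of the 15 calls in WT, 10 were kept in each alternative, other than leaving out a library, in which the gene was tested, and 7 also with each library left out in turn; of the 13 in KO, 8 and 7. Of these, 4 of the 10 and 3 of the 8 were not tested in some alternatives, the 5 CPM filter among them. Those kept also with each library left out were H1f0, H2afx, H2afy, H2afz, Hist1h1b and Hist1h2bm in both, with Hist1h4d in WT and Hist2h2be in KO. Among them H1f0, H2afx, Hist1h1b, Hist1h2bm and Hist1h4d passed the filter on low counts through the day 5 libraries alone. The counts between genotypes and for the interaction were 0 in each alternative run and with each library left out in turn, the interaction not being run in the fit of the 4 libraries compared.

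The log2 ratio of the replication-dependent sum from day 0 to day 5 was 0.46 in WT, 0.33 with library totals only, 0.79 over members with no shared exon and 0.40 to 0.57 with a library left out; in KO it was 0.00, -0.18 with library totals only, 0.45 over members with no shared exon and -0.21 to 0.29 with a library left out. Between genotypes it ran from -0.02 to 0.50 at day 0 and from -0.30 to -0.13 at day 5 with a library left out. With a library left out the variant sum ran from 0.60 to 1.12 in WT and from 0.60 to 0.86 in KO across days (0.72 and 0.53 with library totals only), and from -0.12 to 0.24 and from -0.34 to 0.19 between genotypes at day 0 and day 5.

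The sign of H3f3a in WT, 0.11 and not called, turned to -0.029 with library totals only, to -0.26 with the GC and length offset and to -0.25 without WT day 0 replicate 2, while it was 0.64 without WT day 0 replicate 1. With library totals the median change over all genes, on the log2 scale, was -0.17 in WT and -0.23 in KO, against -0.04 and -0.05, and in KO 2765 genes were higher and 3912 lower, against 3296 and 3029. The cause was not tested. With the replicate number as a replicate block 15 and 13 histone genes were called across days and 0 in the other comparisons, so it changed no count. Deviations of same-numbered libraries correlated at 0.118 across days in WT, 0.228 in KO, and 0.00438 and -0.0165 between genotypes at day 0 and day 5, and the labels do not say that a number marks a shared animal. With 2 libraries per group and 0 to 30 counts on many genes, depth limits what could be seen of the replication-dependent genes.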

Other observations

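The 4 pseudogene symbols left out held few counts: H2af-ps had 1 in all, H3f3a-ps1 had 3, H3f3a-ps2 had 1 and Hist3h2bb-ps had 3. The germline H2A variant genes H2afb1, H2afb2 and H2afb3 had no count in any library, and H2afy3, annotated as a processed pseudogene, had 1.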
